A study of Mus musculus with 9 samples.

Results

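The genes described here are 10 regulators, products and markers of the fat cell lineage, chosen by name out of the 19698 genes measured: the transcription factors Pparg, Cebpa, Cebpb and Cebpd, the fat cell products Fabp4, Lpl, Cd36 and Adipoq, and the precursor cell genes Pdgfra and Dlk1. All 10 were found on the array, each with 1 transcript cluster, and no filter on low values was applied. These genes and the gene lists below were chosen with earlier results of these data known. Their counts beside the shares of all genes are therefore a description and not a test of enrichment. Their transcripts were measured on Affymetrix Gene 1.0 ST arrays for mouse, in 3T3 fibroblasts, a line of immortalised cells from mouse embryos. The 9 arrays formed 3 groups of 3, namely unstimulated control cells, control cells after 1 h with the mouse cytokine TNF-α (tumour necrosis factor, 5 ng/ml), and BAF-knockdown cells after the same hour with TNF-α. All cells were grown to less than confluence, and none is labelled as having received an adipogenic stimulus.

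The knockdown cells stably expressed 1 hairpin RNA whose target sequence is shared by Brg1 and Brm, the ATPases that drive nucleosome remodelling by the BAF complex. The hairpin was driven by the mouse U6 promoter in a retrovirus that also expresses green fluorescent protein, and transduced cells were sorted as a pool for high fluorescence. The sources used here do not give the 3T3 subline, or say whether control cells carried a vector. Unstimulated knockdown cells were not analysed here, so no TNF response within knockdown cells could be measured.

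Fat cells form from fibroblast-like precursors through a relay of transcription factors. C/EBPβ and C/EBPδ appear early after an adipogenic stimulus and switch on PPARγ and C/EBPα, which sustain each other and activate the genes of lipid uptake and storage. PDGFRα and the membrane protein DLK1 (Pref-1) mark precursor cells, and TNF is known to oppose fat cell differentiation. The 3T3 family of fibroblasts includes sublines that readily make this conversion.

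Levels are log2 signals as deposited, obtained by the robust multi-array average (RMA), and differences are on the same scale, so that 1 unit is a change by a factor of 2. Arrays of the same replicate number deviated together, so a fit with the replicate number as a block accompanied each test, and its value is given for the genes on which the results turn. A gene was called at a Benjamini-Hochberg adjusted p under 0.05 over all genes in limma. The knockdown target Smarca4, which encodes Brg1, lay between 11.53 and 11.66 on the 6 control arrays and between 10.25 and 10.64 on the 3 knockdown arrays, a difference from TNF-treated control cells of -1.11 ± 0.09 (SE; limma adjusted p = 0.00362). Smarca2, which encodes Brm, differed from TNF-treated control cells by -0.36 ± 0.20 and was not called (limma adjusted p = 0.734). Its 3 knockdown arrays (9.12, 9.38 and 9.12) lay below the 3 TNF-treated control arrays (9.51, 9.81 and 9.39), while 1 of them lay within the unstimulated range of 9.18 to 9.94. By quantitative RT-PCR, the study reports lower levels of both transcripts in the knockdown. That reported reduction is larger than the factors of 2.15 (Smarca4) and 1.29 (Smarca2) on these arrays.

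Promoter sequences are shown for the members whose groups differed most in either comparison, or whose knockdown and TNF-treated control arrays did not overlap, as far as the RefSeq promoter table (assembly GRCm38.p6) lists them. Each window runs from 250 bases before to 50 bases after the annotated start, 5′ to 3′ on the gene's strand. Pdgfra is at chr5:75152001-75152300, plus strand, a window that lies within the annotated gene (chr5:75151322-75198206). Cebpb is at chr2:167688665-167688964, plus strand, and Adipoq at chr16:23146286-23146585, plus strand. Capitals mark letters of the motifs searched on both strands: the TATA box TATAAA, the CCAAT box, the Sp1 box GGGCGG, the cyclic AMP element core TGACG, the EBF core CCCNNGGG, the nuclear receptor hexamer AGGTCA, and the C/EBP and NF-kB consensus sequences.
Pdgfra: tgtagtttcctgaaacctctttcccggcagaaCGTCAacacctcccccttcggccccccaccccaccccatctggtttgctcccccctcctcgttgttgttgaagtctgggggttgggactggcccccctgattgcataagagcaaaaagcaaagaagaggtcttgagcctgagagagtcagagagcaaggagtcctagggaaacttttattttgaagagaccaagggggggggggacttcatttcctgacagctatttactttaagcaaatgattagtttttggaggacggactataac
Cebpb: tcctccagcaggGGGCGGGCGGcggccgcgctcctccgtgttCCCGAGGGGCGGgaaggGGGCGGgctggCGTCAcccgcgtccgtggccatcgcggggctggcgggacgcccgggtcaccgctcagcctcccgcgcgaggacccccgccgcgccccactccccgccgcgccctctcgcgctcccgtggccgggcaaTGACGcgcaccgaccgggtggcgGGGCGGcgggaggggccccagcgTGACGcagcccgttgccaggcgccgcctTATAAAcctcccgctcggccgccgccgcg
Adipoq: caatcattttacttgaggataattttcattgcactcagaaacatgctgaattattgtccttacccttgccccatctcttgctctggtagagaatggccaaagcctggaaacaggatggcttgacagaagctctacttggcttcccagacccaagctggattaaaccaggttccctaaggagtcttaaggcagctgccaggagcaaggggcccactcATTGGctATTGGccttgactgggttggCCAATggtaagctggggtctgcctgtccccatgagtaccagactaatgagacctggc

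The Cebpb window was the richest in these letters, with 5 Sp1 boxes (2 of them overlapping), 3 cyclic AMP element cores, 1 EBF core that overlaps an Sp1 box, and 1 TATA box. It held 80.7% G and C. The Pdgfra window held 1 cyclic AMP element core and 51.0% G and C, and the Adipoq window held 3 CCAAT boxes and no CpG. Among all 32851 windows of this length, 35.7% held an Sp1 box, 20.8% a cyclic AMP element core, 13.7% an EBF core, 13.6% a TATA box and 37.4% a CCAAT box. Of the 9 windows listed for 7 members, 3 (1 each of Pparg, Cebpa and Cebpb) exceeded both 50% G and C and a ratio of observed to expected CpG of 0.6, against 33.3% of all windows. The nuclear receptor hexamer was found in 3 windows, of which 2 belong to Pparg and 1 to Cd36, and in 16.3% of all windows. The C/EBP and NF-kB consensus sequences were found in 0 of the 9, and in 0.0609% and 4.51% of all windows. These matches describe letters in a window and are not evidence of binding.

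One hour of TNF left the 10 genes without a call in either direction, and the largest differences were those of the early C/EBP genes Cebpd and Cebpb. By limma, 0 of 10 members were called, where 0.137% of all genes were. At an unadjusted p under 0.05, limma gave 2 members, both higher after TNF, against 1.85% of all genes higher at that threshold. The blocked fit also called 0 (0.396% of all genes), as did the methods' t-test (0.584% of all genes). The groups overlapped for all 10 members, against 5.97% of all genes whose groups did not. The median difference of the members was -0.0019, and that of all genes -0.0020.

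Cebpb, the early C/EBP factor that starts the relay (transcript cluster 10478890, chr2:167688915-167690432), stood at 10.95, 10.65 and 10.67 on unstimulated arrays 1, 2 and 3. It stood at 11.08, 10.98 and 10.93 after TNF, and at 11.01, 10.95 and 10.99 in the TNF-treated knockdown. The lowest TNF-treated array lay just below the highest unstimulated one, so the groups overlapped by that pair alone, while each TNF-treated array exceeded the unstimulated array of the same number, by 0.13, 0.33 and 0.26. The difference after TNF was 0.24 ± 0.08 (SE, 3 arrays against 3; limma adjusted p = 1), a fold of 1.18, and limma with the block gave an adjusted p of 0.39. The difference between knockdown and control cells was -0.02 ± 0.08, with a 95% interval from -0.21 to 0.17 (limma adjusted p = 0.986).

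Cebpd, the other early C/EBP factor (transcript cluster 10433885, chr16:15887286-15889545), was measured at 8.91, 8.53 and 8.37 on the unstimulated arrays. After TNF it was 8.98, 9.12 and 8.69, and in the knockdown 8.97, 9.01 and 8.96. Unstimulated array 1 lay above TNF-treated array 3, and again every same-numbered pair differed upward, by 0.07, 0.60 and 0.32. The difference after TNF was 0.33 ± 0.14 (limma adjusted p = 1), a fold of 1.26, and the blocked fit gave an adjusted p of 0.719. Leaving out unstimulated array 3 brought it to 0.21, and over all fits without 1 array or 1 number it ran from 0.20 to 0.48, with a limma adjusted p of at least 0.385. The 3 knockdown arrays lay close together, with an SD of 0.03 against 0.22 in TNF-treated and 0.27 in unstimulated control cells, and their mean differed from that of TNF-treated control cells by 0.05 ± 0.14 (limma adjusted p = 0.975).

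The other pair of regulators varied little. Pparg, the nuclear receptor that fat cells require (transcript cluster 10540897, chr6:115360879-115490404), lay between 6.83 and 7.10 over all 9 arrays, below the array's median signal on each. Its difference was -0.02 ± 0.06 after TNF and 0.09 ± 0.06 in the knockdown (limma adjusted p = 1 and 0.819). Cebpa, its partner in the later steps (transcript cluster 10552140, chr7:35119293-35121928), lay between 7.38 and 7.51, also below the median on every array, and differed by 0.02 ± 0.05 after TNF and by -0.01 ± 0.05 in the knockdown (limma adjusted p = 1 and 0.989). For each of these genes, 4 of the 9 arrays carried exactly the same value. The 95% intervals of the knockdown difference ran from -0.05 to 0.22 for Pparg and from -0.11 to 0.10 for Cebpa. Brightness on an array depends on the probes as well as on the transcript, and whether these signals exceeded background was not tested.

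**Figure D1:**
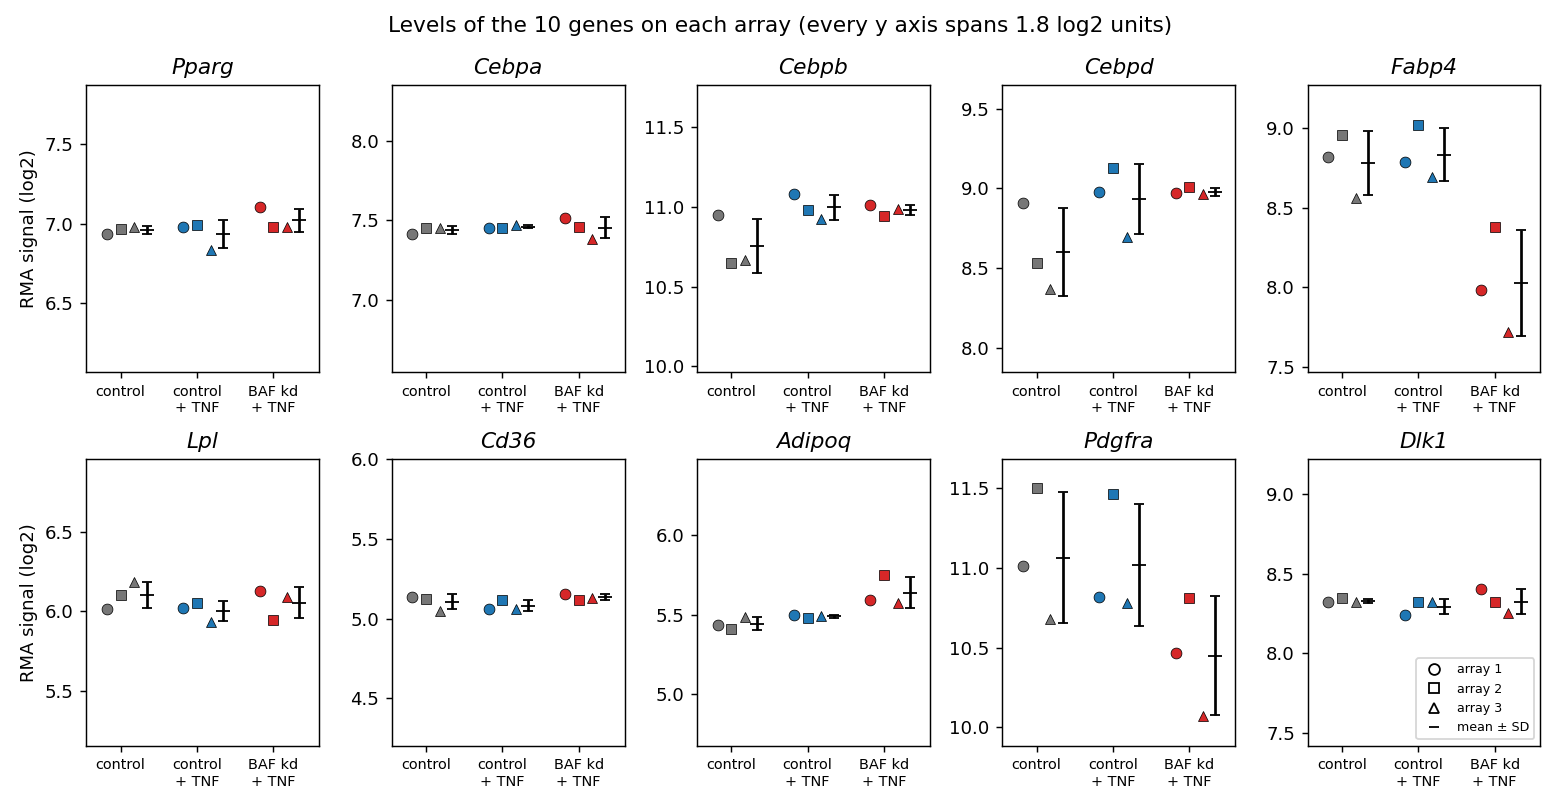
RMA log2 signal of the 10 genes on each of the 9 arrays, with shapes for array numbers and bars for the group mean ± SD of 3 arrays. All panels span the same number of log2 units, so the spread can be compared by eye: Fabp4 and Pdgfra reach lowest on knockdown array 3, at 7.72 and 10.07, while Pparg, Cebpa, Cd36 and Dlk1 stay nearly flat.

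In the comparison of BAF-knockdown with control cells, both TNF-treated, 2 of the 10 genes stood apart from the rest, and both were lower in the knockdown: Fabp4, by a factor of 1.75, and Pdgfra, by a factor of 1.48. Neither was called by limma without the block, where 0 of 10 members were called against 0.137% of all genes. At an unadjusted p under 0.05, limma gave 1 member lower (Fabp4) and 1 higher (Adipoq), against 4.75% of all genes lower and 3.69% higher. Limma with the replicate block called Fabp4 and Pdgfra lower, against 2.33% of all genes lower, and a t-test with a difference over 0.3 gave Fabp4 alone, against 1.46% of all genes lower. The rule that the methods use for the knockdown, a difference over 0.3 with no test, gave Fabp4 and Pdgfra, against 3.27% of all genes lower by as much. The median difference of the members was 0.04, and that of all genes 0.0088. This comparison and the one for TNF share the 3 TNF-treated control arrays.

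Fabp4 encodes the fatty acid binding protein of the fat cell cytoplasm (transcript cluster 10497265, chr3:10204342-10208616). It stood at 8.81, 8.96 and 8.56 in unstimulated and at 8.79, 9.02 and 8.69 in TNF-treated control cells. In the knockdown it stood at 7.98, 8.38 and 7.72. All 3 knockdown arrays lay below all 6 control arrays. Groups did not overlap for 5.47% of all genes in this direction between knockdown and TNF-treated control cells. In each group array 2 was the highest and array 3 the lowest, and the same-numbered differences were -0.80, -0.64 and -0.97. The mean difference was -0.81 ± 0.17 (SE; 95% interval from -1.19 to -0.42; limma adjusted p = 0.127). The replicate block brought the standard error to 0.07, with an interval from -0.97 to -0.64 and a limma adjusted p of 0.00169. Leaving out knockdown array 2 gave -0.98 without the block (limma adjusted p = 0.0334), and leaving out all arrays numbered 1 ended the blocked call (adjusted p = 0.15). Among the 19698 genes, 94 had a larger fall in signal between these groups. The difference after TNF was 0.05 ± 0.17, with an interval from -0.33 to 0.44 (limma adjusted p = 1). In these bulk samples, fewer cells that express a gene and less of its RNA per cell cannot be told apart.

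Pdgfra encodes the PDGF receptor α that marks mesenchymal and preadipocyte cells (transcript cluster 10522503). Its signals were 11.01, 11.50 and 10.68 in unstimulated, 10.82, 11.46 and 10.78 in TNF-treated control and 10.47, 10.81 and 10.07 in knockdown cells. They lay above the third quartile of the array on all 9 arrays. The groups overlapped, since knockdown array 2 lay slightly above TNF-treated control array 3, while array 2 was the highest and array 3 the lowest in each group. The same-numbered differences were -0.35, -0.65 and -0.71. Their mean was -0.57 ± 0.27 without the block (95% interval from -1.18 to 0.04; limma adjusted p = 0.63). In the fit with the replicate block the standard error was 0.07, the interval ran from -0.74 to -0.40, and the adjusted p was 0.00804. This call was lost without TNF-treated control array 3 (limma adjusted p = 0.0575) and without all arrays numbered 1, 2 or 3 (0.125, 0.0519 and 0.108). A larger fall in signal was found for 221 genes. Without the block, leaving out TNF-treated control array 2 gave -0.35, and leaving out knockdown array 2 gave -0.75. After TNF, Pdgfra differed by -0.04 ± 0.27 (limma adjusted p = 1), or ± 0.07 with the replicate block.

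**Figure D2:**
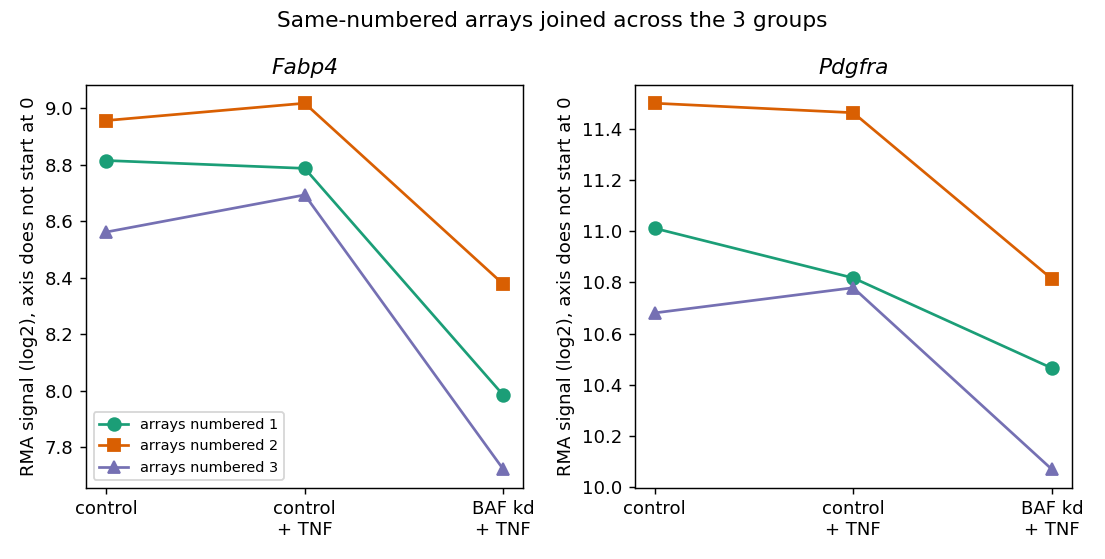
RMA log2 signal of Fabp4 (left) and Pdgfra (right) in the 3 groups, with lines joining arrays of the same number. In both panels the 3 lines keep their order, array 2 highest and array 3 lowest, and each runs down from TNF-treated control to knockdown cells, by 0.64 to 0.97 log2 units for Fabp4 and by 0.35 to 0.71 for Pdgfra.

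Fibroblast markers, which check the labelled cell type, had lower mean signals in the knockdown, to very unequal degrees. Of the 11 on the list 10 were measured, 8 of them with a mean above the third quartile of all signals. Thy1 lay below the median of all signals, and Lum below the first quartile. The knockdown mean was below the TNF-treated control mean for all 10, as for 8959 of all 19698 genes. Vim (-0.0057), Thy1 (-0.04) and Fn1 (-0.09) differed least, and their groups overlapped. By limma 0 of 10 were called without the block (4 before adjustment, at p under 0.05, all lower, against 4.75% of all genes lower, while the t-test gave 3 against 1.46%) and 3 with it, against 2.33%: Dcn, a small matrix proteoglycan, at -2.13 (adjusted p = 0.00101), S100a4, a calcium-binding protein, at -1.18 (0.0245), and Col3a1, a fibrillar collagen, at -0.93 (0.0035). Leaving out 1 array at a time kept these blocked calls in 9, 4 and 9 of 9 fits. The summed log2 signal of the 10 markers was 112.1 to 115.3 in unstimulated, 111.4 to 115.0 in TNF-treated control and 106.3 to 109.8 in knockdown cells. Their part in the result was not tested. Sums for the markers of other cell types overlapped between groups. They ran from 63.2 to 64.2 for 9 leukocyte, from 54.4 to 55.5 for 8 endothelial, from 58.2 to 59.0 for 8 muscle and from 57.2 to 58.0 for 8 epithelial markers over all arrays, and none of these was called with or without the block. At an unadjusted p under 0.05, limma gave 1 muscle marker lower in the knockdown, against 4.75% of all genes lower. This was Des, at -0.20, and its knockdown arrays lay below the TNF-treated control arrays. No leukocyte, endothelial or epithelial marker passed that threshold. RMA signals have no true zero, so no marker can be called absent.

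The other fat cell products were not called in either comparison, with or without the block. Adipoq, the hormone adiponectin (transcript cluster 10434747, chr16:23146536-23157968), was measured at 5.44, 5.41 and 5.49 in unstimulated, 5.50, 5.48 and 5.49 in TNF-treated control and 5.60, 5.75 and 5.57 in knockdown cells. The 3 knockdown arrays lay above all 6 control arrays, while every array placed the gene below the first quartile of its signals. Between knockdown and TNF-treated control cells, groups did not overlap in this direction for 4.63% of all genes. The difference was 0.15 ± 0.06 (limma adjusted p = 0.471, and 0.328 with the block).

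Lpl, the lipoprotein lipase that releases fatty acids outside the cell (transcript cluster 10572130), ranged from 5.93 to 6.18 over the 9 arrays. Its difference was -0.10 ± 0.07 after TNF and 0.05 ± 0.07 in the knockdown (limma adjusted p = 1 and 0.924). Cd36, the fatty acid uptake receptor (transcript cluster 10528207, chr5:17781690-17888959), ranged from 5.05 to 5.16, and differed by -0.02 ± 0.04 and 0.06 ± 0.04 (limma adjusted p = 1 and 0.862). Both lay below the first quartile of the array on all 9 arrays, and their groups overlapped in both comparisons. The 95% interval of the knockdown difference ran from -0.10 to 0.20 for Lpl and from -0.05 to 0.16 for Cd36. Whether these low signals exceeded background was not tested, so the intervals do not bound a change in either transcript.

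Dlk1, the membrane protein Pref-1 that holds precursor cells undifferentiated (transcript cluster 10398319, chr12:109452485-109463336), ranged from 8.24 to 8.40, and 5 of the 9 arrays carried the same value. Its difference was -0.04 ± 0.05 after TNF and 0.03 ± 0.05 in the knockdown (limma adjusted p = 1 and 0.942). The groups overlapped in both comparisons, and the 95% interval of the knockdown difference ran from -0.08 to 0.15.

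**Figure D3:**
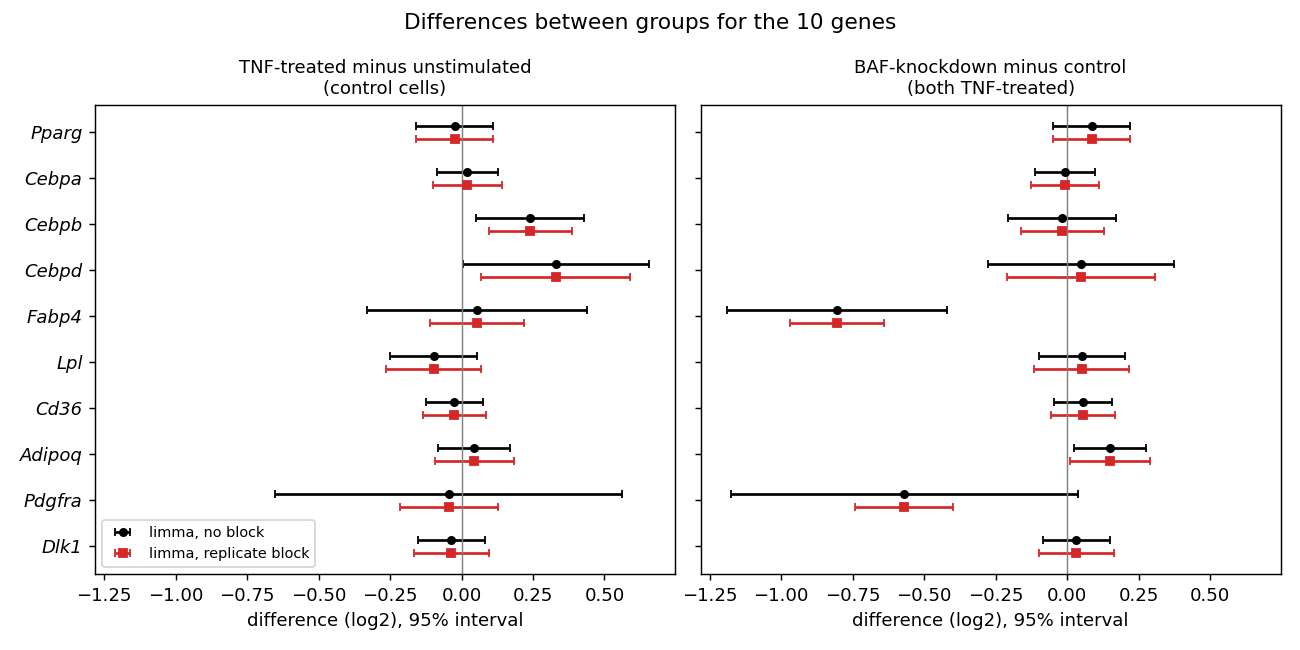
Differences in log2 signal for the 10 genes, with 95% intervals from limma without (black) and with (red) the replicate block, after TNF (left) and in the BAF knockdown (right). The block shortens the intervals of Fabp4 and Pdgfra most, from a standard error of 0.17 and 0.27 to 0.07 each. In the knockdown panel the interval of Fabp4 lies below 0 in both fits, and that of Pdgfra only with the block.

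The pattern over the 9 arrays was compared with that of all other genes for the 2 members with the largest SD, Pdgfra (0.45) and Fabp4 (0.44), after each gene was centred on its own mean. The genes nearest to Fabp4 were Setbp1, Serinc5 and Marcks, at a root mean square distance of 0.0731, 0.0779 and 0.0789 log2 units. The genes nearest to Pdgfra were Rab7b, Gstm2 and Rnf150, at 0.0815, 0.0929 and 0.109. Their differences in the knockdown were -0.72, -0.67 and -0.81 for the former and -0.57, -0.49 and -0.56 for the latter. Setbp1 encodes a nuclear SET-binding protein, Marcks a membrane-bound substrate of protein kinase C, and Gstm2 a glutathione transferase. These likenesses are a description over 9 arrays, with no test. The knockdown arrays were among those used to choose the genes, so knockdown differences close to the member's follow from the choice. Limma called none of these genes without the block (adjusted p from 0.111 to 0.72) and all of them with it (0.000585 to 0.0384).

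**Figure D4:**
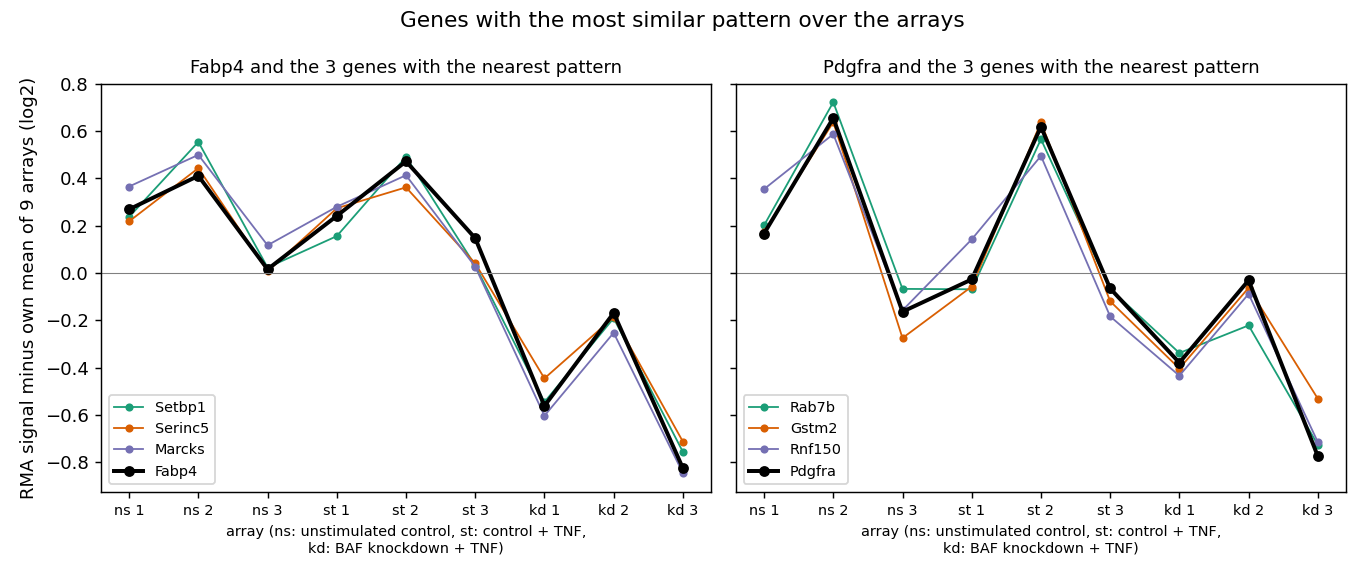
RMA log2 signal minus each gene's own mean over the 9 arrays, for Fabp4 (left, black) and Pdgfra (right, black) with the 3 genes whose pattern lay nearest. All curves rise at array 2 of each group and are lowest at knockdown array 3, with root mean square distances to the black curve of 0.0731 to 0.109.

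Among factors that act before or beside the 4 regulators, 1 gene passed the test in each comparison, against 0.137% of all genes in each. Of 20 early pro-adipogenic factors, all measured, Egr2, an immediate early zinc finger factor, rose after TNF from 7.98, 7.77 and 7.82 to 11.03, 10.67 and 10.12. Every TNF-treated array was above every unstimulated one, with a difference of 2.75 ± 0.39 (limma adjusted p = 0.0477). The call was kept in 2 of the 9 fits that left out 1 array (limma adjusted p from 0.00805 to 0.291). With the replicate block the limma adjusted p was 0.00934, and that call was kept in 6 of 9 such fits. The blocked fit called 0.396% of all genes after TNF. The other 19 genes were not called after TNF in either fit. In the knockdown Egr2 (11.48, 9.78 and 10.83) overlapped with TNF-treated control cells and differed by 0.09 ± 0.39 (limma adjusted p = 0.983). Ebf1, a factor that helps to induce Pparg and Cebpa, fell from 9.13, 8.82 and 9.37 in TNF-treated control to 7.95, 8.23 and 7.87 in knockdown cells. Its difference was -1.09 ± 0.15 (limma adjusted p = 0.0392), and its unstimulated control arrays (9.02, 8.87 and 9.15) also lay above all knockdown arrays. The call was kept in 2 of the 9 fits without 1 array (adjusted p from 0.0191 to 0.216), and in 6 of 9 with the block, and it was lost with each array centred on its median (0.0549). The blocked fit further called Nfia, a nuclear factor I family member, at -0.38 (adjusted p = 0.0253, against 0.67 without the block). Its groups overlapped, and the blocked call was kept in 4 of 9 fits without 1 array. Of all genes, the blocked fit called 2.33% lower in the knockdown. The median difference of the list was 0.02 in the knockdown and -0.01 after TNF.

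Factors known to oppose fat cell formation were represented by 22 of 23 listed genes. Limma without the block called 0 in either comparison. At an unadjusted p under 0.05 it gave 2 after TNF and 3 in the knockdown, against 3.07% and 8.43% of all genes, and the t-test gave 0 and 2, the latter against 2.2% of all genes. The blocked fit, which called 3.31% of all genes in the knockdown, called 2 of the 22, both higher. Foxo1, a forkhead factor restrained by insulin, stood at 7.82, 8.16 and 7.85 in TNF-treated control and at 8.59, 9.0 and 8.97 in knockdown cells, with every knockdown array higher. Its difference was 0.91 (limma adjusted p = 0.0599 without and 0.00149 with the replicate block). Wnt5a, a secreted Wnt ligand, differed by 0.75 (adjusted p = 0.127 without and 0.0162 with it). Leaving out 1 array at a time kept the blocked call of Foxo1 in 9 of 9 fits and that of Wnt5a in 5. After TNF the largest differences were those of Inhba, an activin subunit, at 0.54, and Pdgfb, a PDGF chain, at 0.51, neither of them called with or without the block. Leaving out 1 array moved these differences between 0.30 and 0.86 and between 0.32 and 0.73. With the block, Pdgfb was called without TNF-treated array 2 (limma adjusted p = 0.0231) and without all arrays numbered 2 (0.0265), and Inhba without all arrays numbered 2 (0.0336). The median difference of the list was 0.02 after TNF and -0.03 in the knockdown.

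Partners and relatives of PPARγ and the C/EBP factors were for the most part not called. Of 20 listed, 17 were measured, and limma called 0 without the block in either comparison (1 at an unadjusted p under 0.05 after TNF and 5 in the knockdown, against 3.07% and 8.43% of all genes, and 0 by the t-test in both). The blocked fit called 1, against 3.31% of all genes, Ppargc1a, a PPAR coactivator of mitochondrial genes, at -0.50 in the knockdown (adjusted p = 0.0172, kept in 6 of 9 fits without 1 array). The groups of Ppargc1a overlapped, and its signals, from 6.42 to 7.34, lay below the median signal on every array. The largest differences after TNF were those of Ep300, an acetyltransferase, at -0.20, and Rxra, the partner receptor of PPARγ, at -0.14. Medians were -0.03 after TNF and 0.02 in the knockdown.

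Of 30 genes of lipid storage, synthesis and breakdown in fat cells, 29 were measured and limma called 0 without the block in either comparison. Limma at an unadjusted p under 0.05 gave 0 after TNF and 5 in the knockdown, all lower, against 4.75% of all genes lower, and the t-test gave 0 and 2 (1.46% of all genes lower). In the blocked fit 4 were called lower in the knockdown, against 2.33% of all genes, and 0 higher: Dgat2, which completes triglyceride synthesis, at -0.57 (adjusted p = 0.0312), the fatty acid transporter Slc27a1 at -0.47 (0.037), the monoglyceride lipase Mgll at -0.43 (0.0151) and the hormone-sensitive lipase Lipe at -0.26 (0.0365). For each of the 4, all 3 knockdown arrays lay below the 3 TNF-treated control arrays, against 5.47% of all genes. The knockdown arrays lay above them for 2 of the 29 genes, against 4.63% of all genes. Leaving out 1 array at a time kept the blocked calls of the 4 in 2, 2, 5 and 1 of 9 fits. Mgll, at 6.83 to 7.65, lay below the median signal on every array. The list as a whole was balanced, with 15 members above 0 and 14 below, and a median of 0.0043. After TNF the largest differences were those of Angptl4, an inhibitor of lipoprotein lipase, at 0.23, and Slc27a4, a fatty acid transporter, at -0.16, neither called with or without the block.

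Of 19 adipokines, hormone receptors and signalling genes, 15 were measured, and limma called 0 without the block (1 after TNF and 2 in the knockdown before adjustment, at p under 0.05, against 3.07% and 8.43% of all genes, while the t-test gave 0 and 1, the latter against 2.2%). The blocked fit called 1, against 3.31% of all genes. Cdh13, a cell surface receptor for adiponectin, was called lower in the knockdown with the replicate block, at -0.33 (limma adjusted p = 0.0366, kept in 1 of 9 fits without 1 array). Apln, the peptide hormone apelin, differed by more, at -0.70, and was not called (0.193 with the block); it is outside the rule for named genes and was added after its value was seen. Irs1, an adaptor of the insulin receptor, and the growth factor receptor Igf1r had the largest differences after TNF, at -0.47 and -0.13, and neither was called with the block (limma adjusted p = 0.34 and 1). Leaving out 1 array moved Irs1 between -0.66 and -0.28, and the blocked fit called it without knockdown array 2 (limma adjusted p = 0.0294). The median of the list was -0.02 after TNF and 0.0044 in the knockdown.

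The precursor surface and PDGF list, of which 18 of 19 genes were measured, holds the ligands of the receptor that Pdgfra encodes. By limma 0 were called without the block (3 after TNF and 3 in the knockdown before adjustment, at p under 0.05, against 3.07% and 8.43% of all genes, while the t-test gave 0 and 3, the latter lower, against 1.46%). The blocked fit called 3 lower in the knockdown, against 2.33% of all genes: Pdgfc, a PDGFRα ligand, at -0.97 (adjusted p = 0.0192), Adam12, a membrane protease, at -0.78 (0.0158), and Cd24a, a surface glycoprotein of fat precursors, at -0.40 (0.0349). These calls were kept in 6, 6 and 3 of 9 fits without 1 array. Pdgfc was 9.48, 9.43 and 9.85 in TNF-treated control and 8.44, 8.94 and 8.48 in knockdown cells, with no overlap. After TNF, Pdgfb (0.51) and the hyaluronan receptor Cd44 (0.22) differed most, without a call. The median of the list was -0.05 in the knockdown and -0.02 after TNF.

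**Figure D5:**
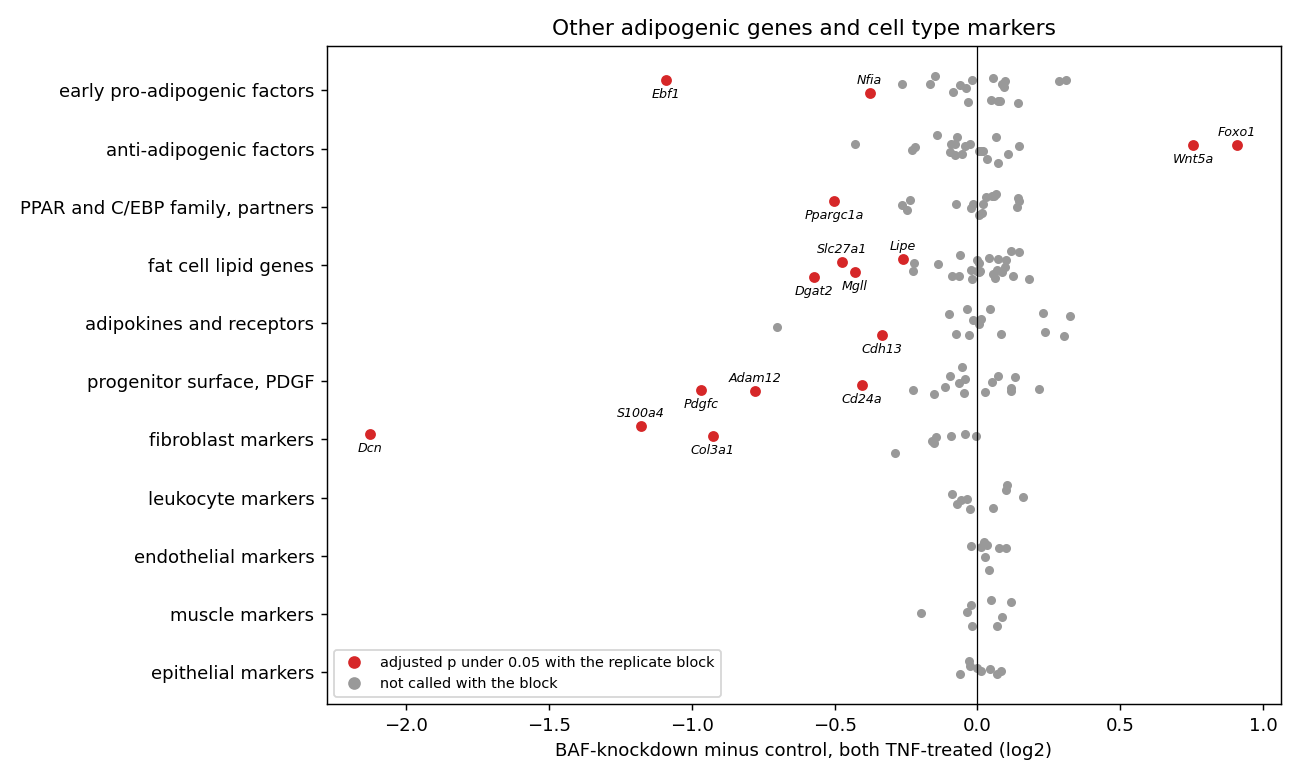
Difference in log2 signal between BAF-knockdown and TNF-treated control cells for each gene of the 6 adipogenic lists and the 5 cell type marker lists, 1 point per gene, spread vertically only for legibility. Red points, named, had an adjusted p under 0.05 in limma with the replicate block, from Dcn at -2.13 to Foxo1 at 0.91, and all red points other than Foxo1 and Wnt5a lie below 0.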

How the data were processed

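Transcript levels were measured on 9 arrays. The deposited values are log2 signals that the authors obtained by RMA, per the submitters' processing notes, run with the affy package of Bioconductor per the study's reporting summary. The annotation build is not given in these sources. Of 27024 transcript clusters, 21319 carry 1 gene symbol in the platform table, 1430 several and 4275 none. For 930 genes with more than 1 cluster the brightest was used, leaving 19698 genes. Gene positions and promoter windows are RefSeq's (GRCm38.p6).

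All 9 arrays entered 1 limma fit (version 3.58.1, R 4.3.3, moderated by eBayes, two-sided tests, a mean for each group), a procedure tested on simulated data. For TNF the methods use a t-test of each gene alone, at an unadjusted p under 0.05 with a difference over 0.35. The study lists public arrays of another series as its data for that response, while here the rule was run on the arrays described above. For the knockdown the methods use a difference over 0.3 alone, and a t-test with that difference, which they do not name there, was run beside it. The labels number the replicates alike in each group. The study's methods describe the replicates of each group as independent and biological, and place them on separate days. Deviations from the group means correlated between arrays of the same number from 0.21 to 0.724 (9 pairs) and between arrays of different numbers from -0.566 to 0.0111 (18 pairs). Same-numbered arrays of TNF-treated control and knockdown cells correlated at 0.388, 0.21 and 0.247. Those of unstimulated and TNF-treated control cells correlated at 0.579, 0.724 and 0.652. The numbers were therefore treated as pairs. The labels themselves do not state separate cultures, and p-values measure the spread between these arrays only.

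The 10 members and all lists (6 adipogenic and 5 marker lists) were chosen with earlier results of these data known. Rxra and Pdgfb stand in 2 adipogenic lists each. Named genes are all members, list genes called with or without the block (up to 4 a list, otherwise the 2 with the largest difference), and the 3 genes nearest in pattern to each of the 2 members with the largest SD. Alternatives were the replicate block, leaving out arrays or replicate numbers, fitting 2 groups, median centring, array weights, a filter on dim genes, mean of clusters, a trended prior the t-test and the difference alone. Arrays give no read depth, so their number limits the precision.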

Additional observations from a re-analysis of the deposited data

How the results depend on the processing

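After TNF the number of members called was 0 under every alternative run. In the knockdown it was 0 without the block and 2 with the replicate block (Fabp4 and Pdgfra). With the paired fit (replicate block), leaving out single arrays, an alternative chosen after seeing the data, or all arrays of 1 number gave 0 to 2 calls. Pdgfra lost its call without TNF-treated control array 3 and without any 1 of the numbers, and Fabp4 lost its call only without number 1 (adjusted p = 0.15). Leaving out 1 array with no block gave 0 to 1 calls, the 1 being Fabp4 without knockdown array 2 (adjusted p = 0.0334), and the t-test with a difference over 0.3, which the methods do not name for the knockdown, gave 1, also Fabp4. The difference over 0.3 alone, the methods' rule, added after seeing the data, gave 2 (Fabp4 and Pdgfra). The block changed no other call among the members, and among list genes the calls it changed are given beside each gene. Over all alternatives the knockdown difference ran from -0.98 to -0.65 for Fabp4 and from -0.75 to -0.35 for Pdgfra. The filter on dim genes removed Pparg, Cebpa, Lpl, Cd36 and Adipoq. Signs turned only for uncalled differences when arrays were left out. After TNF these ran from -0.069 to 0.035 for Pparg, -0.0076 to 0.042 for Cebpa, -0.053 to 0.14 for Fabp4, -0.052 to 0.0026 for Cd36, -0.27 to 0.17 for Pdgfra, -0.070 to 0.0087 for Dlk1 and -0.031 to 0.38 for Angptl4. In the knockdown they ran from -0.047 to 0.034 for Cebpa, -0.059 to 0.038 for Cebpb, -0.071 to 0.16 for Cebpd, -0.012 to 0.13 for Lpl and -0.034 to 0.082 for Dlk1. The cause of these changes was not tested.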
